A study of Mus musculus with 6 samples.

Results

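The genes described here take up modified lipoproteins or carry cholesterol out of cells. They were chosen by name, 10 genes of the 12393 read on the arrays, and comprise the scavenger receptors Msr1, Cd36, Scarb1 and Olr1, the apolipoproteins Apoe, Apoc1 and Apoc2, the transporters Abca1 and Abcg1, and the nuclear receptor Nr1h3. A total of 19 of the 22626 probe sets, the groups of probes that each report on a transcript, carry their names. Where several probe sets reported on a gene, the one that was brightest on average stood for it, and the others are given beside it.

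The series asked how gene expression in mouse lung differs once fibrosis has set in after bleomycin, an antitumour drug that breaks DNA and whose delivery to the airways is a common model of lung fibrosis. The treated group comprised 3 mice given bleomycin at 1 mg/kg in 50 µl of saline, called D, E and F, and the comparison group 3 mice given saline, called A, B and C. All were labelled wild-type male C57BL/6J mice of 8 to 10 weeks, and lungs were taken at day 14. RNA of homogenised lung without trachea and large airways was measured on Affymetrix MOE430A arrays, 1 array per mouse. The route of delivery is oropharyngeal in the design text and intratracheal in the sample labels, and was not settled.

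As background, macrophages take up oxidised and modified lipoproteins through scavenger receptors, a route that cholesterol does not shut down as it does the LDL receptor. Excess cholesterol leaves the cell through the ATP-binding cassette transporters ABCA1, which loads lipid-poor apolipoproteins, and ABCG1, which loads lipoprotein particles. Oxysterols made from the surplus activate the liver X receptors (LXR), among them LXR alpha, the product of Nr1h3, whose known targets include Abca1, Abcg1, Apoe, Apoc1 and Apoc2. In the lung these genes are known from alveolar macrophages and from type 2 cells, which handle surfactant lipid, and Cd36 also from capillary endothelium.

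The promoter windows below, 250 bases before to 50 bases after the annotated start, are shown because Apoe and Olr1 had the largest differences of the 10 genes and because Abca1 is the best known LXR target among them. They come from RefSeq on the build GRCm38.p6, all on the minus strand, at chr7:19699139-19699438 for Apoe, chr6:129507116-129507415 for Olr1 and chr4:53159846-53160145 for Abca1. For Apoe it is the farthest upstream of 3 windows. Capitals mark letters of the motifs described after the sequences.
Apoe: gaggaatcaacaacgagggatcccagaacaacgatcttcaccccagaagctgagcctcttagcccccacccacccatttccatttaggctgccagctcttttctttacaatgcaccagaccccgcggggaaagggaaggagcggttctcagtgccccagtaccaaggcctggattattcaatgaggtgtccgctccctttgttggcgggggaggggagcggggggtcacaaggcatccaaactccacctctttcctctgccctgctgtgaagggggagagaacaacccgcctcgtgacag
Olr1: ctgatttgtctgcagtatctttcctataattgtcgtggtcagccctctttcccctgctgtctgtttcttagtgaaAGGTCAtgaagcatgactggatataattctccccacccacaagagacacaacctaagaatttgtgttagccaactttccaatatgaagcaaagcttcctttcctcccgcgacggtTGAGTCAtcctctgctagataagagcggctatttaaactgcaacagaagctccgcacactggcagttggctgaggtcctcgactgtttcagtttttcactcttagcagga
Abca1: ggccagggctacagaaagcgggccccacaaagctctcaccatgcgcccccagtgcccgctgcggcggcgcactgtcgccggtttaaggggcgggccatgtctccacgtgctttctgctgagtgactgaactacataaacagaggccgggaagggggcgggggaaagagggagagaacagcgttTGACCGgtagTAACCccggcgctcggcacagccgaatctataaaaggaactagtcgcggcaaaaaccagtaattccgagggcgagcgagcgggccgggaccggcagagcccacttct

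Windows were found for 6 of the 10 genes, Cd36, Olr1, Apoe, Apoc2, Abca1 and Nr1h3. Both strands were searched for the nuclear receptor core motif AGGTCA, for its direct repeat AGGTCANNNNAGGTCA, which contains the core motif, for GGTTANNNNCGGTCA, the letters of the LXR element of the human ABCA1 promoter with a free spacer, and for the AP-1 site TGAGTCA. The human-derived letters occurred in the Abca1 window, reading on the opposite strand and beginning 67 bases before the start, and in 4 of all 32851 windows (0.0122%). Those letters were taken from the human form of the same gene, so this match is not independent of the choice of motif. The core motif occurred in the windows of Olr1, Apoc2 and Cd36 and in 16.3% of all windows. TGAGTCA occurred in the Olr1 window, 60 bases before the start, and in 5.20% of all windows. The direct repeat was in none of the windows of these genes and in 0.0152% of all, and none of the motifs searched was in the Apoe windows. These are matches of letters and not shown binding sites.

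Any pair of bleomycin arrays correlated at 0.986 to 0.995 (Pearson, over probe sets) and any pair of saline arrays at 0.987 to 0.989, against 0.965 to 0.985 for pairs across groups. The type 2 cell transcript Sftpc, a defining lung marker, stood at 13.98 to 14.32 log2 units on the bleomycin arrays and at 14.33 to 14.38 on the saline arrays. The array of saline B went against its sex label: Xist, the transcript of the inactive X chromosome, stood at 11.40 there and at 7.23 to 7.88 on the other arrays, and the Y-linked Eif2s3y at 4.05, against 7.23 to 8.02. Bleomycin D stood apart on the first principal component (44.3, against 12.9 and 19.8 for E and F). Each result below is therefore also given without saline B where its call changed. Arrays have no read depth, and their number limits the precision.

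At day 14 after bleomycin, 4 of the 10 genes were higher and 0 were lower at an adjusted p under 0.05 in limma: Apoe, Olr1, Msr1 and Scarb1. They comprise 3 of the 4 scavenger receptors and 1 of the 3 apolipoproteins, while neither transporter nor Nr1h3 passed. Among all 12393 genes 3.70% were called higher and 1.90% lower, and at an unadjusted p under 0.05 the 10 genes gave 4 higher and 0 lower, where 11.7% and 11.0% of all genes did. The median difference over the 10 genes was 0.42 log2 units, against -0.04 over all genes. The bleomycin arrays lay wholly above the saline arrays for the same 4 genes, where 13.3% of all genes did, and wholly below for 0 of the 10, where 14.6% of all genes did. With 1 array left out, 4 of the 10 genes passed without bleomycin D or E, where 2.41% and 3.11% of all genes were called higher. The number was 3 without bleomycin F (1.70% of all genes), saline A (1.32%), saline B (2.47%) or saline C (2.15%).

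**Figure D1:**
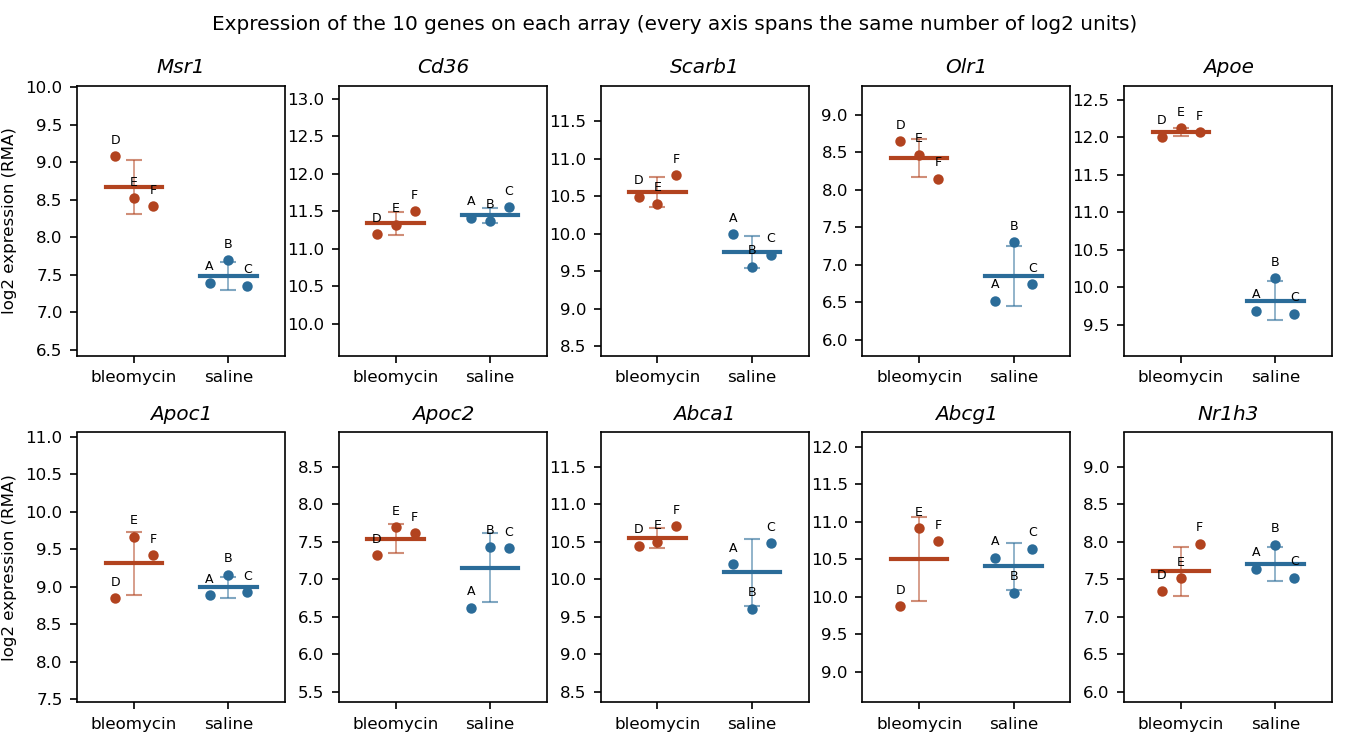
Log2 expression (RMA) of the 10 genes on each array by the brightest probe set, bleomycin (red, arrays D, E, F) left of saline (blue, arrays A, B, C), with bars at the mean and whiskers of 1 SD (n = 3). Levels of different genes are not comparable, and the groups are apart for Msr1, Scarb1, Olr1 and Apoe and overlap for the other 6 genes.

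Apoe had the largest difference of the 10 genes. It encodes apolipoprotein E, which binds receptors of the LDL receptor family and takes up cholesterol at the cell surface. The probe set 1432466_a_at read 12.01, 12.12 and 12.07 log2 units on bleomycin D, E and F, against 9.69, 10.12 and 9.65 on saline A, B and C. The bleomycin lungs lay within 0.11 units of each other, and the lowest of them stood far above the highest saline lung. Apoe rose 4.74-fold (95% interval 3.80 to 5.93), from a mean difference of 2.25 ± 0.14 log2 units (SE, n = 3 each, adjusted p = 0.000409 in limma). It ranked 20 among the 12393 genes by difference. It passed in every fit with 1 array left out, with adjusted p between 0.000634 and 0.00512 in limma, and the difference was 2.39 without saline B.

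Among the receptors, Olr1 encodes LOX-1, a lectin-like receptor for oxidised LDL. It read 8.65, 8.47 and 8.15 on bleomycin D, E and F, against 6.52, 7.30 and 6.74 on saline A, B and C. Every bleomycin lung was above every saline lung, with saline B the highest of its group. Olr1 rose 2.97-fold (95% interval 2.13 to 4.15), by 1.57 ± 0.21 log2 units (SE, n = 3 each, adjusted p = 0.00668 in limma), and the adjusted p stayed between 0.00398 and 0.041 with 1 array left out. A single probe set, 1419534_at, reports on it.

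Msr1 encodes the class A macrophage scavenger receptor, which binds acetylated and oxidised LDL and takes part in foam cell formation. Its brightest probe set, 1422062_at, read 9.08, 8.52 and 8.41 in the bleomycin lungs and 7.39, 7.69 and 7.35 in the saline lungs. The groups did not overlap, and bleomycin D was the highest. By this probe set Msr1 rose 2.29-fold (95% interval 1.70 to 3.06), by 1.19 ± 0.19 log2 units (SE, n = 3 each, adjusted p = 0.0122 in limma, and 0.0656 without saline A). The second probe set, 1448061_at gave 8.99, 8.63 and 8.42 in the bleomycin lungs, against 6.36, 6.39 and 6.78 in the saline lungs, a 4.50-fold rise (adjusted p = 0.000787 in limma). This second probe set passed in every fit with 1 array left out. The third rose by 0.88 log2 units (adjusted p = 0.0356, and 0.0514 to 0.106 without bleomycin F, saline A, saline B or saline C), while the fourth and dimmest differed by 0.55 and did not pass (adjusted p = 0.149). All 4 probe sets had every bleomycin array above every saline array, and their differences ranged from 0.55 to 2.17 log2 units. The log2 signal of the second minus the first was -0.09, 0.11 and 0.01 in the bleomycin lungs, against -1.03, -1.30 and -0.57 in the saline lungs (exact two-sided permutation p = 0.1, the smallest that 3 arrays against 3 allow, and 0.15 adjusted over 6 such comparisons).

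Scarb1 encodes SR-BI, the HDL receptor, which passes cholesterol between HDL and cells in both directions. Its brightest probe set, 1416050_a_at, read 10.49, 10.40 and 10.78 in the bleomycin lungs, against 9.99, 9.56 and 9.72 in the saline lungs. The groups did not overlap but came closer than for Apoe, Olr1 or Msr1. Scarb1 rose 1.75-fold (95% interval 1.38 to 2.21), by 0.80 ± 0.15 log2 units (SE, n = 3 each, adjusted p = 0.0238 in limma). Leaving out saline B gave an adjusted p of 0.0646, leaving out saline C 0.0743 and leaving out bleomycin F 0.0829. It was 0.0697 after each array was centred on its ribosomal protein genes. The other probe sets carry the suffix x, which marks probes that may also bind other transcripts. They rose by 0.82 (1455820_x_at) and 0.78 log2 units, and 1455820_x_at passed in every fit with 1 array left out. The third, 1437378_x_at (adjusted p = 0.0386), did not pass without bleomycin E (0.0914), bleomycin F (0.126), saline A (0.114) or saline C (0.113).

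Cd36, a class B scavenger receptor and fatty acid transporter, was the receptor that did not pass. Its brightest probe set, 1450883_a_at, read 11.19, 11.32 and 11.50 in the bleomycin lungs, against 11.41, 11.37 and 11.55 in the saline lungs. The groups overlapped, with a difference of -0.11 ± 0.12 log2 units (SE, n = 3 each, adjusted p = 0.648 in limma) and a 95% interval of -0.38 to 0.16. The other probe sets differed by -0.06 and -0.46. The dimmest, 1450884_at, had every bleomycin array below every saline array, with an adjusted p of 0.114. Scarb1 and Cd36 were also set against each other within each array: the log2 signal of Scarb1 minus that of Cd36 was -0.70, -0.92 and -0.71 in the bleomycin lungs, against -1.43, -1.81 and -1.83 in the saline lungs (exact two-sided permutation p = 0.1, and 0.15 adjusted over the 6 comparisons).

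**Figure D2:**
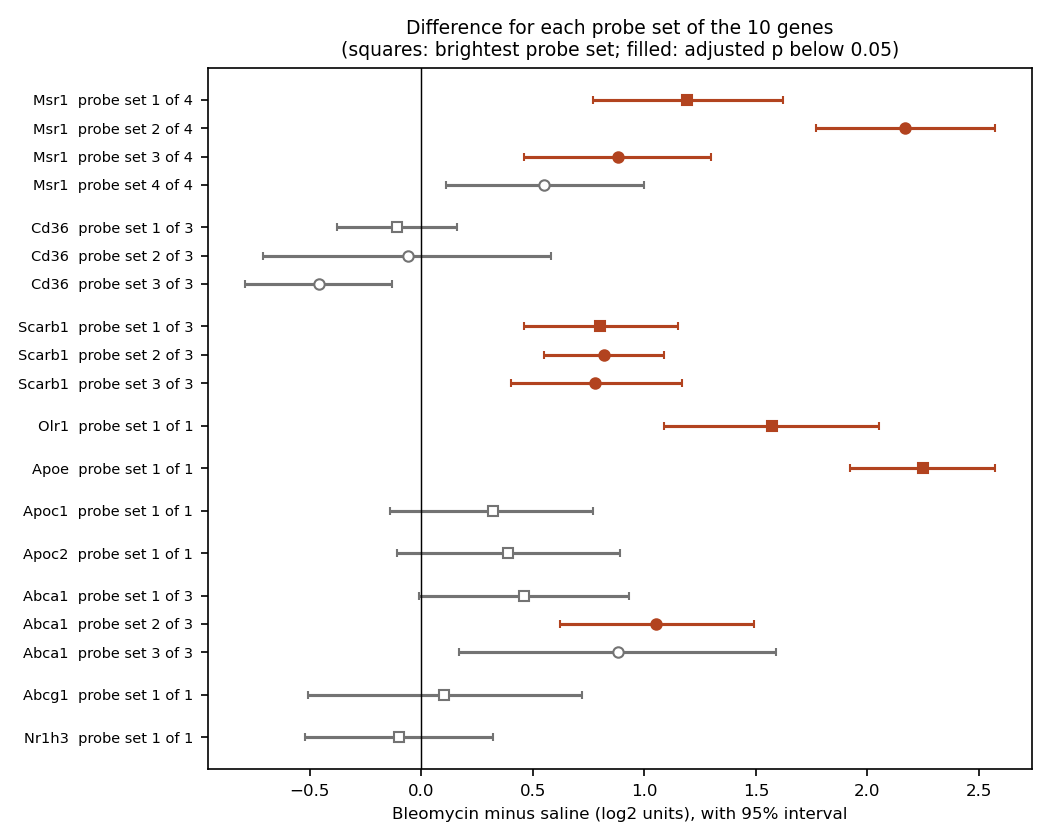
Bleomycin minus saline in log2 units for each of the 19 probe sets of the 10 genes, with 95% intervals from limma; squares mark the brightest probe set of a gene and filled symbols an adjusted p below 0.05. In all 9 probe sets passed, all of them higher after bleomycin, and the differences run from 0.55 to 2.17 among the probe sets of Msr1, from 0.46 to 1.05 for Abca1 and from 0.78 to 0.82 for Scarb1.

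Probe sets give a second count of the same genes: 9 of the 19 were called higher and 0 lower in limma, against 3.29% and 1.45% of all 22626 probe sets. The 9 comprise 3 of Msr1, 3 of Scarb1, 1 of Abca1 and the single probe sets of Olr1 and Apoe. Probe sets of a gene share their RNA and are not independent counts of it.

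Neither of the other apolipoprotein genes, Apoc1 and Apoc2, passed the test. Apoc1 encodes an inhibitor of lipid transfer and of lipoprotein uptake, and Apoc2 the cofactor of lipoprotein lipase. In the RefSeq gene order Apoc2, Apoc4, Apoc1 and Apoe follow each other on chromosome 7. Apoc1 read 8.85, 9.67 and 9.42 in the bleomycin lungs, against 8.89, 9.16 and 8.93 in the saline lungs, so bleomycin D lay below all saline lungs and E and F above them. The difference was 0.32 ± 0.20 log2 units (SE, n = 3 each, adjusted p = 0.402 in limma, and 0.55 log2 units with adjusted p = 0.0957 without bleomycin D). Apoc2 read 7.32, 7.69 and 7.61 in the bleomycin lungs, against 6.62, 7.43 and 7.41 in the saline lungs, a difference of 0.39 ± 0.22 (SE, n = 3 each, adjusted p = 0.345 in limma). Saline A alone was low, and without it the difference was 0.13. The 95% intervals, -0.14 to 0.77 for Apoc1 and -0.11 to 0.89 for Apoc2, ended below that of Apoe, 1.92 to 2.57. Apoc4, named here for its place between them, differed by -0.07 (adjusted p = 0.727).

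Within each array, the log2 signal of Apoe minus that of Apoc1 was 3.16, 2.45 and 2.65 in the bleomycin lungs, against 0.80, 0.95 and 0.71 in the saline lungs. Apoe minus Apoc2 was 4.68, 4.43 and 4.46, against 3.08, 2.69 and 2.24. Neither pair overlapped between the groups, and the exact two-sided permutation p was 0.1 for each, the smallest this design allows, and 0.15 adjusted over the 6 comparisons. Such a difference holds the binding of each probe set too, so only its change between groups can be read. These 6 comparisons were chosen after the values were seen.

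Of the efflux transporters, Abca1 gave different answers by probe set. The brightest, 1421840_at, read 10.45, 10.50 and 10.71 in the bleomycin lungs, against 10.20, 9.61 and 10.48 in the saline lungs, and the groups overlapped. Its difference was 0.46 ± 0.21 log2 units (SE, n = 3 each, adjusted p = 0.247 in limma), with a 95% interval of -0.01 to 0.93. Saline B was the lowest, and without it the difference was 0.21. The second probe set, 1421839_at, read 8.32, 7.56 and 7.94 in the bleomycin lungs, against 6.94, 6.68 and 7.04 in the saline lungs, without overlap. It rose 2.08-fold, by 1.05 ± 0.19 log2 units (SE, n = 3 each, adjusted p = 0.0216 in limma). That adjusted p was 0.0617 without saline B, 0.0816 without saline A and 0.0724 without bleomycin F. The dimmest probe set differed by 0.88 (adjusted p = 0.149), with bleomycin D at 6.69 and E at 5.22. With the mean of the 3 probe sets, Abca1 passed (0.80 log2 units, adjusted p = 0.0401 in limma), so its call depends on how the gene is read. The log2 difference of the second minus the first probe set was -2.13, -2.94 and -2.77 in the bleomycin lungs, against -3.27, -2.93 and -3.44 in the saline lungs (exact two-sided permutation p = 0.2, and 0.24 adjusted over the 6 comparisons).

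Abcg1 and Nr1h3 did not pass under any alternative run here. Abcg1 read 9.87, 10.91 and 10.74 in the bleomycin lungs, against 10.52, 10.05 and 10.64 in the saline lungs, and bleomycin D was below all others. The difference of 0.10 ± 0.27 log2 units (SE, n = 3 each, adjusted p = 0.858 in limma) had a 95% interval of -0.51 to 0.72. Without bleomycin D it was 0.42 (adjusted p = 0.304), and without saline B it was -0.07. Nr1h3 read 7.34, 7.51 and 7.97 in the bleomycin lungs, against 7.64, 7.96 and 7.52 in the saline lungs. Its difference was -0.10 ± 0.18 (SE, n = 3 each, adjusted p = 0.791 in limma), with a 95% interval of -0.52 to 0.32, and 0.03 without saline B or without bleomycin D. The intervals do not show that these transcripts were at the same level in both groups.

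The order of the bleomycin lungs was not the same for all genes. Bleomycin D was the lowest of its group for 7 of the 10 genes, Cd36, Apoe, Apoc1, Apoc2, Abca1, Abcg1 and Nr1h3, and the highest for 2, Msr1 and Olr1. Among all genes it was the lowest for 37.1% and the highest for 41.0%.

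**Figure D3:**
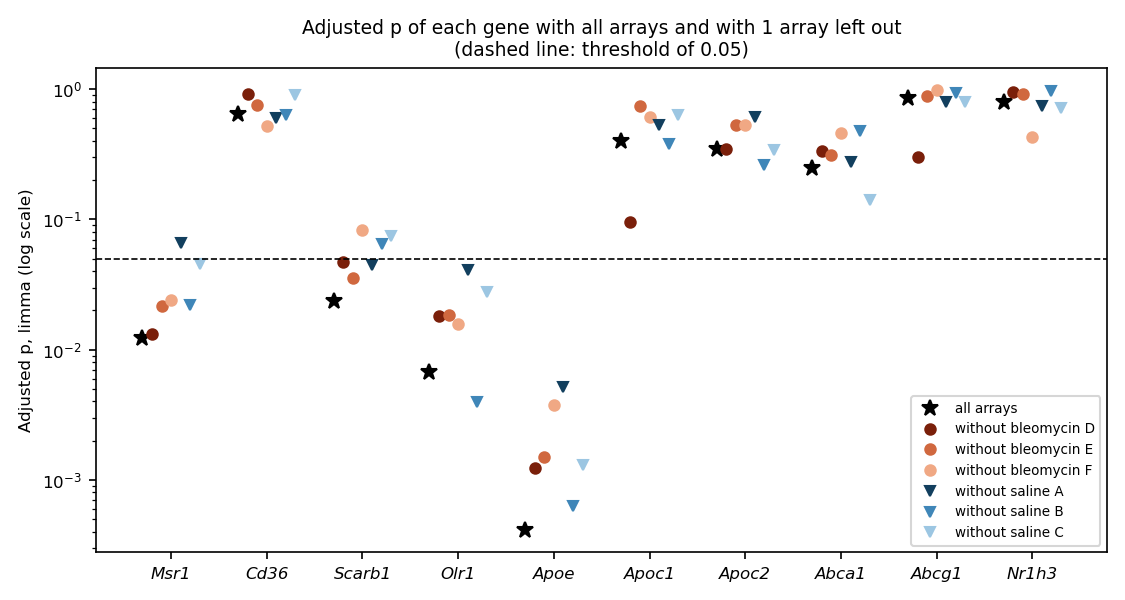
Adjusted p from limma on a log axis for each gene by its brightest probe set, with all arrays (stars), with a bleomycin array left out (circles) and with a saline array left out (triangles); the dashed line is the threshold of 0.05. Apoe and Olr1 stay below the line in all 7 fits, Msr1 crosses it in 1 of them and Scarb1 in 3.

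Markers of macrophages moved with the 4 genes that rose. Of 15 measured macrophage and monocyte markers, 11 were higher and 0 lower in limma (9 to 11 higher with 1 array left out). Of all genes 3.70% were called higher and 1.90% lower. The median difference of these markers was 1.25 log2 units. Their summed level, adding linear RMA values, was 41071 to 43475 in the bleomycin lungs and 25970 to 29917 in the saline lungs. Such sums, here and below, lean on the brightest probe sets, as here on Lyz2, at 13.98 to 14.28 log2 units. They do not weigh the markers of a list equally. The general macrophage and monocyte genes Lyz2, Csf1r and Mertk differed by 0.14, 0.27 and 0.03 log2 units and did not pass, and no marker was at 0, since an array gives a signal for every probe set. Of 12 markers of resident alveolar macrophages, 4 were higher and 1, Krt79, was lower (-1.37), with summed levels of 14992 to 19306 in the bleomycin lungs, against 10223 to 13313 in the saline lungs. The 4 were Ctsk (1.82), Itgax (1.81), Mrc1 (1.00) and Plet1 (0.83). By the mean of its probe sets Plet1 differed by 0.32 and did not pass (adjusted p = 0.167 in limma). Pparg (0.67), Marco (0.46), Siglecf (0.44), Chil3 (0.26), Cidec (-0.24), Car4 (-0.32) and Fabp1 (-1.20) did not pass. Without saline A 2 of the 12 markers were higher, and Krt79 did not pass without saline A, saline B, saline C or bleomycin F (adjusted p = 0.0773, 0.0941, 0.111 and 0.0928). The part of these cells in the rise of Apoe, Olr1, Msr1 and Scarb1 was not tested. In whole lung, more or fewer cells of a type and more or less RNA per cell cannot be told apart.

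Fewer markers of other lung cells passed. The shares among all genes were 3.70% higher and 1.90% lower, and unadjusted 11.7% and 11.0%. Of 12 markers listed as capillary endothelial, cells that also make Cd36, 3 were lower and 0 higher in limma (unadjusted, 5 lower and 0 higher). The 3 were Ednrb (-1.14), Ramp2 (-0.87) and Kdr (-0.86). The others ran from -0.61 (Tek) to 0.26 (Emcn) and did not pass, with Pecam1 at -0.13 and Vwf at 0.07. The summed level of the 12 markers was 18507 to 19904 in the bleomycin lungs and 23587 to 28195 in the saline lungs. Without saline A none of the 3 passed (adjusted p = 0.0581 for Ednrb, 0.0584 for Ramp2 and 0.0584 for Kdr), without bleomycin F Kdr did not (0.0508), and without saline B 4 were lower. Of 10 type 2 alveolar epithelial markers 0 passed (unadjusted, 0 higher and 2 lower), with summed levels of 52042 to 68112 after bleomycin and 69621 to 72144 after saline. Their part in the values of Cd36, Scarb1, Abca1 and Abcg1 was not tested. Of 5 adipocyte markers Retn alone was lower (-0.46), and it did not pass with any single array left out (adjusted p between 0.0762 and 0.128). The lists of platelets (6 measured), liver (6), neutrophils (8) and T and B cells (8) gave 0 calls in limma, with unadjusted counts of 0 higher and 4 lower, 0 and 1, 0 and 0, and 0 and 0.

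Of 19 other measured scavenger and lipoprotein receptors and related genes, 4 were higher and 1 lower in limma. Of all genes 3.70% were called higher and 1.90% lower. The median difference of the list was 0.26 log2 units, and not all of its genes take up lipoproteins. Cd68, the macrosialin of macrophage lysosomes, rose 6.43-fold, with 11.24, 11.04 and 10.88 in the bleomycin lungs, against 7.74, 8.74 and 8.63 in the saline lungs (adjusted p = 0.00132). Clec7a, the beta-glucan receptor dectin-1, rose 3.11-fold (adjusted p = 0.000429). Mrc1, the mannose receptor, rose 2.01-fold (adjusted p = 0.0222, but 0.0863 without saline A and 0.0735 without saline C). Cxcl16, which binds oxidised LDL and also serves as a chemokine, rose 1.84-fold (adjusted p = 0.0497), and with 1 array left out it passed only without bleomycin E. Its difference was 1.08 log2 units by the mean of its probe sets and 1.27 by the one with the largest interquartile range. Both readings passed (adjusted p = 0.00679 and 0.00769 in limma). Cxcl16 did not pass with quantile normalization repeated (0.0623) or arrays centred on ribosomal protein genes (0.0667). Vldlr, the VLDL receptor, fell by 0.87 log2 units (adjusted p = 0.0343, and 0.107, 0.0951, 0.0768 and 0.106 without saline A, saline C, bleomycin D and bleomycin F). The number higher was 2 without saline A or saline C. Cd68 is also among the macrophage and monocyte markers, and Mrc1 among those of resident alveolar macrophages.

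Of 22 measured genes of sterol efflux and lipoprotein handling, 2 were higher and 0 lower in limma (unadjusted, 3 higher and 2 lower). Of all genes 3.70% were called higher and 1.90% lower, and unadjusted 11.7% and 11.0%. The median difference of the list was -0.09. Its largest difference was that of Ch25h, which missed the threshold (1.29 log2 units, adjusted p = 0.0586 in limma). Ch25h read 9.88, 8.92 and 8.58 in the bleomycin lungs, against 7.74, 8.24 and 7.52 in the saline lungs, without overlap. Lpl, the lipoprotein lipase for which the Apoc2 product is the cofactor, read 12.79, 12.61 and 12.51 in the bleomycin lungs, against 11.28, 11.79 and 11.90 in the saline lungs. It rose 1.97-fold (adjusted p = 0.0179), by 0.98 log2 units, and the size depended on the probe set: the difference was 1.44 by the mean of its probe sets and 1.90 by the one with the largest interquartile range (adjusted p = 0.000706 and 0.000409). Lpcat3, an LXR target that remodels phospholipids, rose 1.64-fold (adjusted p = 0.015, and 0.058 without saline A and 0.0538 without saline C). Neither passed without bleomycin F (adjusted p = 0.0506 for Lpl and 0.064 for Lpcat3).

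Of 11 nuclear receptors and partners, 0 passed in limma (unadjusted, 1 higher and 1 lower, against 11.7% and 11.0% of all genes). The median difference of the list was -0.10. The largest difference was that of Pparg, a nuclear receptor that drives lipid handling in alveolar macrophages. It read 8.55, 8.21 and 7.95 in the bleomycin lungs, against 7.59, 7.78 and 7.34 in the saline lungs, a difference of 0.67 ± 0.18 log2 units (SE, n = 3 each, adjusted p = 0.0716). The groups did not overlap, and the difference missed the threshold.

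Of 21 genes listed under lysosomal sterol handling, esterification and lipid droplets, 4 were higher and 2 lower, with a median difference of 0.10. The list also took in Gpnmb and Lgals3, whose products its heading does not describe. Soat1, Soat2, Nceh1 and Plin1 were listed but not read on the arrays. The esterification enzymes of the heading, Soat1 and Soat2, are thus not covered. Of all genes 3.70% were called higher and 1.90% lower. Gpnmb, which encodes a membrane glycoprotein that foam cells make, rose 8.60-fold, with 10.36, 11.34 and 11.13 in the bleomycin lungs, against 7.87, 7.56 and 8.08 in the saline lungs (adjusted p = 0.000787). Lipa, the lysosomal acid lipase that frees cholesterol from its esters, rose 2.38-fold, with 11.25, 11.53 and 11.50, against 9.99, 10.32 and 10.20 (adjusted p = 0.00214). Lgals3, which encodes galectin-3, rose 2.03-fold (adjusted p = 0.00416), and the lipid droplet coat gene Plin2 rose 1.64-fold (adjusted p = 0.0277). With 1 array left out Plin2 passed only without bleomycin D. The 2 lower genes, named after their values were seen, were the oxysterol-binding protein gene Osbpl1a (-0.55, adjusted p = 0.0463) and the droplet coat gene Plin4 (-0.54, adjusted p = 0.0312). By the mean of its probe sets Osbpl1a differed by -0.25 and did not pass (adjusted p = 0.211 in limma). Without saline A, saline B, saline C or bleomycin F 0 genes were lower, and 1 was without bleomycin D or bleomycin E.

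Of 20 genes of sterol synthesis and SREBP2 targets, 1 was higher and 0 lower in limma (unadjusted, 5 higher and 1 lower). Of all genes 3.70% were called higher and 1.90% lower, and unadjusted 11.7% and 11.0%. The median difference of the list was 0.11. Mvd, a decarboxylase of the mevalonate pathway, rose 1.41-fold (adjusted p = 0.0478), and it passed in 0 of the 6 fits with 1 array left out (adjusted p between 0.072 and 0.121).

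**Figure D4:**
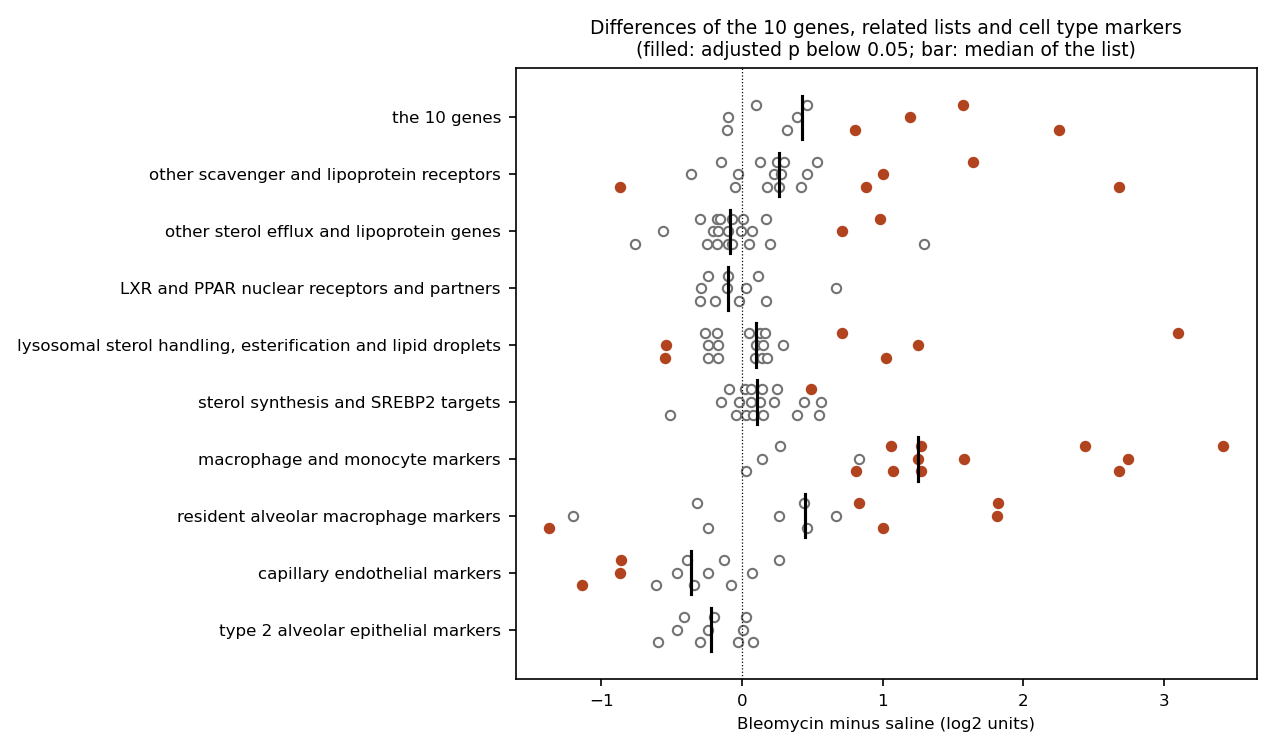
Bleomycin minus saline in log2 units for the 10 genes, 5 lists of related genes and 4 lists of cell type markers, a point per gene, filled where the adjusted p is below 0.05, with a bar at the median of each list. The 10 genes have a median of 0.42, the macrophage markers 1.25 and the capillary endothelial markers -0.37.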

How the data were processed

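Arrays of 6 mouse lungs were used, 3 per group. The deposited values are log2 expression per probe set, made by the authors with RMA, which includes quantile normalization. This is stated in the design text, and RMA also in the submitters' processing notes. No source used here gives the software version or chip definition. The log base was read from the values, the largest being 14.42. Background, saturation and scan batches were not examined, since no scanner file or detection call was used. The labels name 3 mice per group, so the spread includes that between animals.

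Of 22690 probe sets, 64 controls were left out. Names came from GEO's platform annotation, and 20351 probe sets matched RefSeq genes (GRCm38.p6) through their Entrez ID, used for names and gene order. Of those tested, 20380 had 1 symbol, 691 several and 1555 none listed. Only those with 1 symbol were named.

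The comparison of bleomycin over saline used lmFit and eBayes of limma 3.58.1 (R 4.3.3), without covariates, with Benjamini-Hochberg adjustment over 22626 probe sets and a threshold of 0.05. Adjusted p-values are limma's, intervals use its moderated errors, and a fold is a power of 2 of the difference. The fit was also run on simulated data with independent noise. Its spreads came from limma's own fitted prior, so that run checks the code and not how these arrays behave. The genes, the 5 related lists and the 9 marker lists were chosen with earlier results of these data known. Named are all 10 genes; all called genes of a related list up to 5, otherwise the 4 with the largest differences, or the largest difference where none passed; and called markers where a list had up to 3. Apoc4, Osbpl1a, Plin4, Lyz2, Csf1r, Mertk, Krt79, Sftpc, Tek, Emcn, Pecam1 and Vwf were named beyond this rule. So were Ch25h, Itgax, Ctsk, Plet1, Marco, Siglecf, Chil3, Cidec, Car4 and Fabp1, and the unread Soat1, Soat2, Nceh1 and Plin1. Alternatives were filters on dim probe sets, other priors, array weights, normalization, centring, readings of a gene, a threshold of 0.01 and leaving out each array. Plots used matplotlib 3.10.9 under Python 3.11.15.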

Additional observations from a re-analysis of the deposited data

How the results depend on the processing

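Apoe, Olr1 and Msr1 kept their direction and their call under the 8 alternatives other than the threshold and leaving out an array, and Scarb1 did so except when arrays were centred on ribosomal protein genes. At a threshold of 0.01, 2 of the 10 genes were higher. The number was 5 by the mean of all probe sets and by the probe set with the largest interquartile range. By these readings Abca1 passed too (adjusted p = 0.0401 and 0.0216 in limma). With 1 array left out, 3 to 4 of the 10 genes were higher and 0 lower. That centring lowers every difference by 0.125 log2 units (0.125 being the shift of the ribosomal genes) and moves the median of all genes to -0.16. It gave 306 genes higher and 378 lower, 44.7% of calls higher, against 66.0% with the values as deposited. Differences of genes that did not pass changed sign for Nr1h3 with array weights (0.05), for Abcg1 with that centring (-0.02), and with 1 array left out, where Abcg1 ranged from -0.10 to 0.42 and Nr1h3 from -0.28 to 0.03.

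All genes called numbered 458 higher and 236 lower, with 143 and 20 at a threshold of 0.01, and 163 to 385 and 22 to 165 with 1 array left out. At a threshold of 0.01 the related receptors had 2 higher and 0 lower, the efflux genes 0 higher, the lysosomal and droplet genes 0 lower and the synthesis genes 0 higher. With 1 array left out, these were 2 to 5 and 0 to 1 for the receptors, 0 to 2 higher for efflux, 3 to 4 higher and 0 to 1 lower for the lysosomal and droplet list, and 0 higher for synthesis. Some alternatives raised the counts. By the probe set with the largest interquartile range, 5 receptors and 5 lysosomal and droplet genes were higher. Of the efflux list 3 were higher with dim probe sets left out, the trended robust prior or the mean of all probe sets. Of the lysosomal and droplet list 1 gene was lower when probe sets below the median level were left out, which removed Plin4 itself. The number was also 1 with the trended robust prior and with the mean of all probe sets, where Osbpl1a did not pass (adjusted p = 0.0543 and 0.211 in limma). Of the synthesis list 0 were higher with the trended robust prior, array weights or the centring, and 1 was lower with the centring and by the probe set with the largest interquartile range. Fits with 1 array left out have fewer arrays, and apart from the removal of Plin4 the cause of the other changes was not tested. Saturation and signal over background could not be examined. No paired analysis was possible because no letter from A to F occurs in both groups.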
